A study of Mus musculus with 6 samples.

Results

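The genes described here encode the transforming growth factor beta (TGF-beta) ligands Tgfb1, Tgfb2 and Tgfb3, the receptors Tgfbr1, Tgfbr2 and Tgfbr3, and the latent TGF-beta binding proteins Ltbp1, Ltbp2, Ltbp3 and Ltbp4. They were chosen by name, and 9 of the 10 have a row of their own among the 13965 rows of the expression table. Ltbp2 was not analysed here. RNA was sequenced from mouse kidneys at embryonic day 16, in 3 mutant and 3 control libraries. Mutant kidneys carried the Six2-TGC transgene, which makes Cre recombinase in nephron progenitors, together with 2 floxed alleles of the miR-17~92 microRNA cluster. Control kidneys were labelled wild type with 1 floxed and 1 intact allele, and their label names no transgene. By the known activity of this driver, the deletion belongs to progenitors and to the nephron cells that descend from them, while stroma, vessels and ureteric bud keep the cluster. What the transgene does and what the deletion does cannot be told apart in this design. Each of 3 litters gave 1 library of each genotype. The sources used here do not say how many embryos went into a library.

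TGF-beta ligands are secreted in a latent form. The cleaved propeptide of the ligand stays bound to it and is linked to a latent TGF-beta binding protein, which anchors the complex to fibrillin and fibronectin in the extracellular matrix. Integrins and proteases release the active ligand, which binds the type II receptor Tgfbr2. Tgfbr2 then phosphorylates the type I receptor Tgfbr1, and Tgfbr1 phosphorylates the transcription factors Smad2 and Smad3. In the developing kidney the pathway is known for restraining ureteric branching and for its action on stroma and matrix.

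The sequences below are those of the deleted cluster, and they are shown because Tgfbr2 is a reported target of it. The 6 mature microRNAs come from RefSeq (GRCm38.p6, chromosome 14, plus strand), with the seed (bases 2 to 8) in capitals. They fall into 4 seed families, since miR-17 and miR-20a share a seed and so do miR-19a and miR-19b.
miR-17-5p: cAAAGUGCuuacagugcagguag
miR-20a-5p: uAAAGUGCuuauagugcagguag
miR-18a-5p: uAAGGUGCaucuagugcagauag
miR-19a-3p: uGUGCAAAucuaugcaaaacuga
miR-19b-3p: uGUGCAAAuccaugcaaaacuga
miR-92a-3p: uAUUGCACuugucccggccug

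The longest annotated 3′ UTR of each of the 9 genes was searched, on the transcript strand, for the 7-base complements of the seeds. These are GCACTTT for miR-17 and miR-20a, GCACCTT for miR-18a, TTTGCAC for miR-19a and miR-19b, and GTGCAAT for miR-92a. Matches were present in 2 of the 9 genes. Tgfbr2 (chromosome 9) held a miR-17 match at bases 298 to 304 of its 6085-base 3′ UTR and a miR-19 match at bases 295 to 301, so that both share the bases GCAC. Tgfb2 (chromosome 1) held a miR-18a match at bases 1612 to 1618 of 2656. The sites are printed from the GENCODE M21 transcripts (GRCm38) with the 7 matching bases in capitals.
Tgfbr2, miR-17 match: cagccaataacgtttGCACTTTattaa
Tgfbr2, miR-19 match: caacagccaataacgTTTGCACtttat
Tgfb2, miR-18a match: gacagttcaaaggaaGCACCTTtttct

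A match of this kind is common. Of 12665 tested genes with a 3′ UTR, 34.1% held at least 1 match of the 4 families, 14.7% one for miR-17 and miR-20a, 13.4% one for miR-19 and 9.5% one for miR-18a. Among 3′ UTRs within 25% of the length of that of Tgfbr2, 79.2% held at least 1, and among those near the length of the Tgfb2 3′ UTR 53.7% did. Tgfb3, Tgfbr1, Tgfbr3, Ltbp1, Ltbp3, Ltbp4 and Tgfb1 held none in the windows searched.

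Library totals were worked out from the smallest step of the CPM values. They were 46672915 to 54913325 reads in mutant kidneys and 43804667 to 49473404 reads in control kidneys. Levels are given as CPM, counts scaled by the library total. By these totals the 9 genes had between 768 reads (the lowest library of Tgfb2) and 18863 reads (the highest library of Ltbp1). The joined row that holds Mir17hg, the host transcript of the cluster, was at 53.6, 39.8 and 44.6 CPM in mutant kidneys and 34.1, 36.4 and 23.0 CPM in control kidneys of litters 1, 2 and 3 (adjusted p = 0.0292 with litter as a block and 0.222 without). Reads outside the deleted segment count in this row, so it does not check the deletion, and mature microRNAs were not measured. Kidney markers were present in all libraries (Wt1 at 157 to 180.02 CPM in mutant and 184 to 199 CPM in control kidneys, Ret at 62.6 to 70.1 CPM in mutant and 50.5 to 59.7 CPM in control kidneys). Cited1, a marker of uncommitted nephron progenitors, was at 9.32 to 12.9 CPM in mutant kidneys and 37.4 to 53.1 CPM in control kidneys.

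Of the 9 genes 5 rose in mutant kidneys when the libraries were compared within litters, and none fell. They were the ligand gene Tgfb3, the type II receptor gene Tgfbr2 and all 3 measured genes of latent binding proteins, Ltbp1, Ltbp3 and Ltbp4. The changes were 1.15-fold to 1.40-fold. Tgfb1, Tgfb2, Tgfbr1 and Tgfbr3 did not pass. The comparison used limma on log2(CPM + 0.5), with p-values adjusted by the Benjamini-Hochberg method over all 13766 tested rows and a call at an adjusted p below 0.05. With litter as a block, 5 of 9 genes were called higher, against 7.93% of all tested rows, and 0 lower, against 3.51%. With genotype alone in the model 0 of 9 were called in either direction, against 0.363% of all rows called higher and 0.196% called lower. With median-ratio scaling and the block the same 5 genes were called, against 6.6% of all rows higher and 4.31% lower. With genotype alone 4 of the 9 had an unadjusted p below 0.05, all of them higher. Of all 13766 tested rows 1551 had such a p, in either direction. The median log2 change of the 9 genes was 0.20, and that of all tested rows was 0.01. All 9 changes were above 0, as were 53.1% of those of all rows, but that of Tgfbr1 was below 0 under the other scalings given with that gene.

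**Figure D1:**
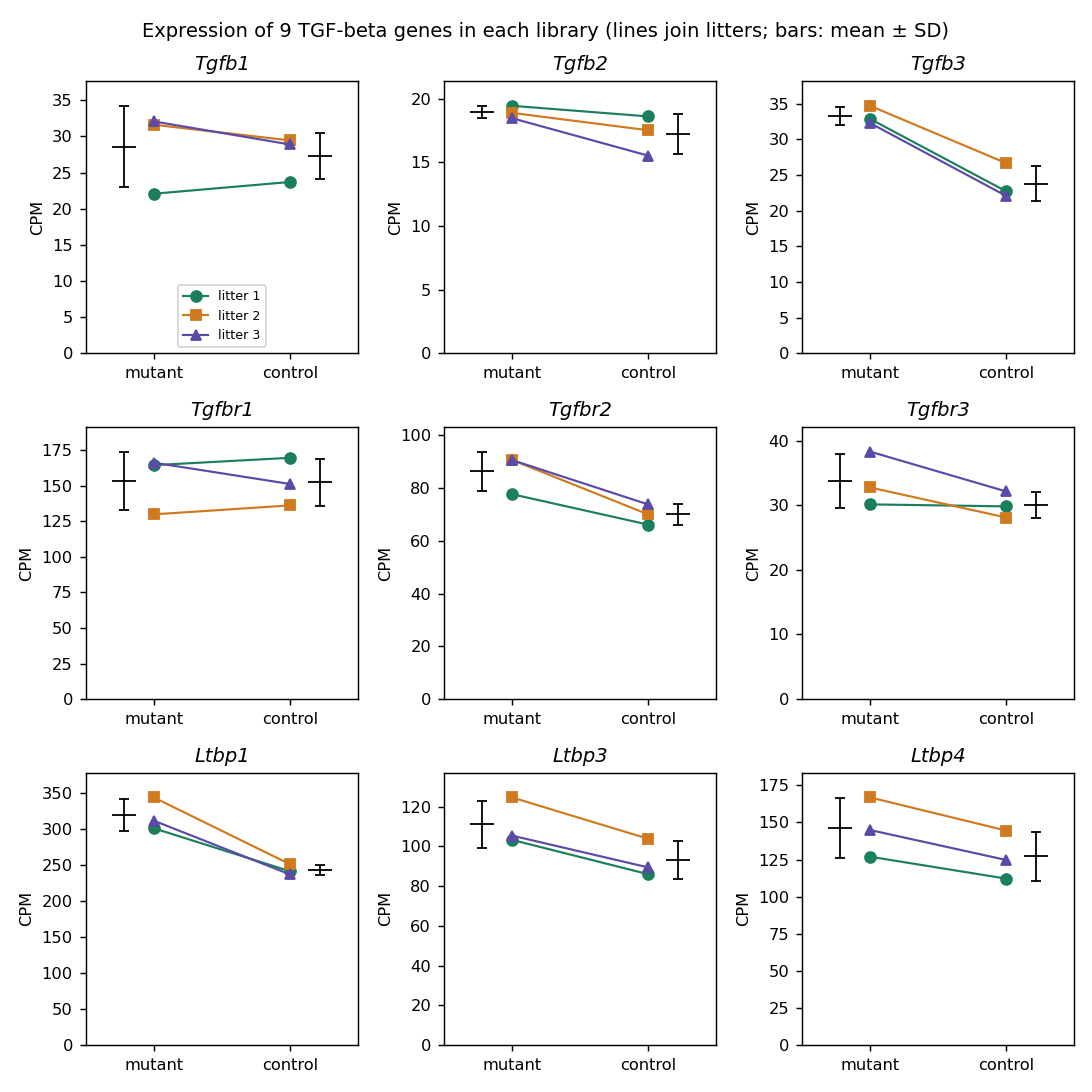
Expression of the 9 genes in CPM (vertical axes from 0) in each mutant and control library. Lines join the 2 libraries of a litter, and bars beside them give the mean ± SD of 3 libraries. Every mutant value lies above every control value for Tgfb3, Tgfbr2 and Ltbp1, whereas for Ltbp3 and Ltbp4 the groups overlap and the mutant library is higher within each litter. Of all tested rows, 10.2% had every mutant value above every control value, and 28.3% were higher in the mutant in 3 of 3 litters.

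Among the ligands, Tgfb3 stood apart. It is the isoform best known from palate and lung development. It was at 32.9, 34.7 and 32.3 CPM in mutant kidneys of litters 1, 2 and 3, against 22.7, 26.7 and 22.1 CPM in control kidneys. The 2 groups did not overlap, which was also true, with mutant values above control values, of 10.2% of all tested rows. The means were 33.3 ± 1.26 CPM in mutant and 23.8 ± 2.49 CPM in control kidneys (SD, n = 3 each), a 1.40-fold difference. The log2 change was 0.48 (SE 0.07 with litter as a block), with an adjusted p of 0.00620 with the block and 0.0926 with genotype alone.

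Tgfb1, the isoform most often studied in fibrosis and immunity, was at 22.1, 31.6 and 32.1 CPM in mutant kidneys and 23.7, 29.4 and 28.9 CPM in control kidneys. Both kidneys of litter 1 were lower than those of the other litters, and the groups overlapped. Its log2 change was 0.05, with a 95% interval from -0.12 to 0.22 with the block (adjusted p = 0.696). Tgfb2, the isoform whose loss in mice is known to cause urogenital defects, was at 19.4, 18.9 and 18.5 CPM in mutant kidneys and 18.6, 17.5 and 15.5 CPM in control kidneys. The mutant library was higher in 3 of 3 litters, but the groups overlapped by the value of control litter 1. The log2 change of Tgfb2 was 0.14 with an interval from -0.04 to 0.31 (adjusted p = 0.280 with the block), so a change of the size seen in Tgfb3 lay outside the intervals of both.

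The balance between the ligand transcripts was compared within libraries. The log2 ratio of Tgfb1 to Tgfb3 was -0.57, -0.13 and -0.01 in mutant kidneys and 0.06, 0.14 and 0.38 in control kidneys. All mutant ratios were thus below all control ratios, with the widest gap within litter 1. These are ratios of reads, not of molecules, since the transcripts differ in length. The log2 ratio of Tgfb2 to Tgfb3 averaged -0.80 in mutant and -0.46 in control kidneys, again without overlap. For each of these 2 ratios an exact two-sided permutation test over the 6 libraries gave p = 0.1, the smallest that 3 against 3 allows, or 0.45 after adjustment over the 9 ratios within ligands, receptors and binding proteins. The remaining 7 ratios had p-values of 0.2 to 0.6 by the same exact test, and 0.45 to 0.6 after adjustment. Within litters, all 9 ratios differed in the same direction in 3 of 3 litters, and exact two-sided sign flips over the litters gave p = 0.25 for each, the smallest that 3 litters allow.

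Among the receptors, Tgfbr2 rose. It was at 77.7, 90.7 and 90.6 CPM in mutant kidneys, against 66.1, 70.0 and 73.8 CPM in control kidneys. The lowest mutant value was above the highest control value, as for 10.2% of all tested rows. The means were 86.3 ± 7.48 CPM in mutant and 70.0 ± 3.83 CPM in control kidneys (SD, n = 3 each), or 1.23-fold higher. The log2 change of 0.30 (SE 0.05 with the block) had an adjusted p of 0.0112 with litter as a block and 0.248 with genotype alone. It was 0.23, 0.37 and 0.29 in litters 1, 2 and 3. The call ended when the trend on transcript length and GC content was removed, which left a log2 change of 0.12 (adjusted p = 0.145 with the block). Tgfbr2 has one of the longest transcripts, in a length decile where 30.8% of all rows were called higher with the block.

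Tgfbr1, which encodes the signalling type I receptor, was at 165, 129.95 and 166 CPM in mutant kidneys and 169.7, 136 and 151 CPM in control kidneys. It was higher in the mutant in litter 3 and lower in litters 1 and 2. Its log2 change was 0.01 with an interval from -0.11 to 0.13 (adjusted p = 0.940 with the block). The sign of the change was negative under median-ratio scaling (-0.0085), under trimmed-mean scaling (-0.011) and once the trend on length and GC content was taken out (-0.074).

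Tgfbr3, or betaglycan, is a co-receptor that presents ligands, above all TGF-beta 2, to Tgfbr2. It was at 30.1, 32.7 and 38.3 CPM in mutant kidneys and 29.8, 28.1 and 32.1 CPM in control kidneys. The 2 groups overlapped, although the mutant library was higher in 3 of 3 litters. Such an order within litters was seen for 28.3% of all tested rows and for 7 of the 9 genes. The log2 change of Tgfbr3 was 0.16, with an interval from -0.0005 to 0.32 (adjusted p = 0.172 with the block). The log2 ratio of Tgfbr1 to Tgfbr2 averaged 0.82 in mutant and 1.11 in control kidneys, and the values of the groups overlapped (exact permutation p = 0.3). Within litters 1, 2 and 3 the mutant ratio was lower, by log2 differences of -0.28, -0.44 and -0.16.

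Each of the 3 measured latent binding protein genes rose with litter as a block. Ltbp1, which binds all 3 latent ligands, was at 301, 343.5 and 311 CPM in mutant kidneys and 241, 251 and 237 CPM in control kidneys. Every mutant value was above every control value, as for 10.2% of all tested rows. The means were 318 ± 22.3 CPM in mutant and 243 ± 7.24 CPM in control kidneys (SD, n = 3 each). This was a 1.31-fold difference, with a log2 change of 0.39 (SE 0.04 with the block) and an adjusted p of 0.00215 with the block and 0.0628 with genotype alone.

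Ltbp3, known for its part in bone and tooth development, was at 103, 125 and 105 CPM in mutant kidneys and 86.0, 104 and 89.4 CPM in control kidneys. Within each genotype litter 2 was highest, and the control library of litter 2 lay between mutant libraries, so the groups overlapped. Within litters the log2 change was nearly the same, at 0.26, 0.26 and 0.24. The adjusted p was 0.0118 with litter as a block and 0.398 with genotype alone. With the block and the trend on length and GC content removed, the log2 change of Ltbp3 was 0.15 (adjusted p = 0.0709), which ends the call.

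Ltbp4, known for its part in elastic fibre assembly, was at 127, 167 and 145 CPM in mutant kidneys and 112, 145 and 125 CPM in control kidneys. The order of the litters was the same in both genotypes, with litter 2 highest and litter 1 lowest. The log2 changes were 0.18, 0.21 and 0.22 in litters 1, 2 and 3, with a mean of 0.20 and an adjusted p of 0.0223 with the block and 0.583 with genotype alone. The call of Ltbp4 also ended when that trend was removed (0.13, adjusted p = 0.0950). The summed level of the 3 binding protein genes was 531 to 635 CPM in mutant and 439 to 499 CPM in control kidneys.

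Levels of different genes were compared as CPM per kilobase of the longest annotated transcript (mean ± SD, n = 3 libraries each). Ltbp1 was highest, at 47.7 ± 3.34 in mutant and 36.4 ± 1.09 in control kidneys. Ltbp4 was at 27.2 ± 3.72 in mutant and 23.6 ± 3.03 in control kidneys, and Tgfbr1 at 26.7 ± 3.56 in mutant and 26.5 ± 2.91 in control kidneys. Libraries of these 2 genes overlapped in both genotypes, so their order is not resolved. Ltbp3 came next, at 19.4 ± 2.05 in mutant and 16.2 ± 1.65 in control kidneys. Tgfb1 was at 11.1 ± 2.20 in mutant and 10.6 ± 1.23 in control kidneys. Tgfbr2 was at 10.7 ± 0.925 in mutant and 8.65 ± 0.473 in control kidneys, and Tgfb3 at 9.85 ± 0.373 in mutant and 7.04 ± 0.737 in control kidneys. Values of Tgfb1, Tgfbr2 and Tgfb3 overlapped from one to the next in mutant kidneys and were separate in control kidneys. The lowest levels were those of Tgfbr3, at 5.54 ± 0.685 in mutant and 4.93 ± 0.333 in control kidneys, and of Tgfb2, at 3.70 ± 0.0952 in mutant and 3.37 ± 0.306 in control kidneys. The order depends on the transcript length used, since 7 of the 9 genes have more than 1 annotated protein-coding transcript. Which of them are made was not measured. For Ltbp3 the mean protein-coding transcript of 2311 bases averages 3 annotated entries of 356 to 5190 bases. Per kilobase of the mean protein-coding transcript, Ltbp3 was at 48.1 ± 5.09 in mutant and 40.3 ± 4.10 in control kidneys, above Ltbp4 at 35.5 ± 4.86 in mutant and 30.8 ± 3.96 in control kidneys, the reverse of their order above. Tgfbr1, at 50.5 in mutant and 50.1 in control kidneys, lay above Ltbp3 by the mean length. Tgfbr3 lay above Tgfb3, at 9.955 against 9.85 in mutant and 8.86 against 7.04 in control kidneys. Tgfbr2 lay above Tgfb1 in mutant kidneys (14.9 ± 1.29 and 13.1 ± 2.60) and below it in control kidneys (12.1 ± 0.662 and 12.6 ± 1.46). Ltbp1 was highest and Tgfb2 lowest by both lengths.

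Across all genes the change in mutant kidneys went with transcript length, and most of the 9 genes are long. The median log2 change of all tested rows was -0.10 in the shortest length decile (decile 1) and 0.17 in the longest (decile 10). With litter as a block, 1.41% of rows were called higher in decile 1, 15.8% in decile 9 and 30.8% in decile 10. Tgfbr2 lies in decile 10, and Ltbp1, Ltbp3, Ltbp4, Tgfbr1 and Tgfbr3 lie in decile 9. Tgfb3, at 3383 bases, lies in decile 5, where the median change was -0.0061 and 3.55% of rows were called higher.

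**Figure D2:**
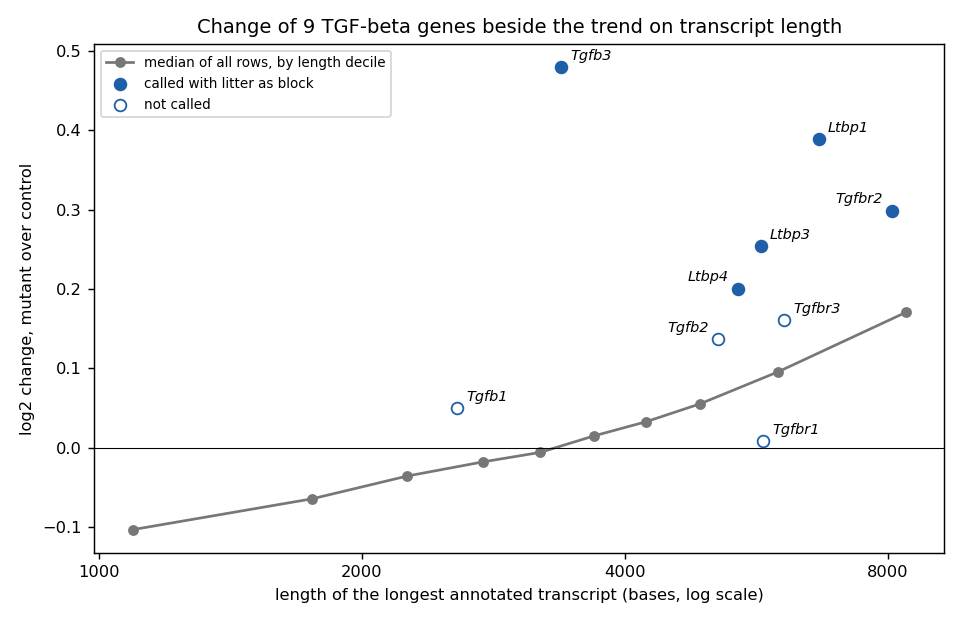
Log2 change, mutant over control, of the 9 genes against the length of the longest annotated transcript (log scale, bases), beside the median change of all rows in each length decile (line). Tgfb3 (0.48 at 3383 bases) and Ltbp1 (0.39 at 6671 bases) lie farthest above the line, and Tgfbr1 lies below it.

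The trend on length and GC content was then taken out of every library. Tgfb3 and Ltbp1 were still called with litter as a block, and Tgfbr2, Ltbp3 and Ltbp4 were not. These 2 of 9 called higher, with 0 lower, compare with 3.16% of all rows called higher and 3.13% lower. Tgfb3 then had a log2 change of 0.45 (adjusted p = 0.0105). It was also the 1 of 9 called with genotype alone (0.0332), where 0.777% of all rows were higher and 0.552% lower. Ltbp1 had 0.24 (0.0104). Tgfbr2 had 0.12 (0.145), Ltbp3 0.15 (0.0709) and Ltbp4 0.13 (0.0950). With the mean length of the protein-coding transcripts in place of the longest, Ltbp3 was called as well (log2 change 0.25, adjusted p = 0.0140), and Tgfbr2 was not (0.13, 0.117). In that version 3.84% of all rows were called higher and 3.47% lower. The mean length of Ltbp3 is over 3 annotated transcripts of 356 to 5190 bases.

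**Figure D3:**
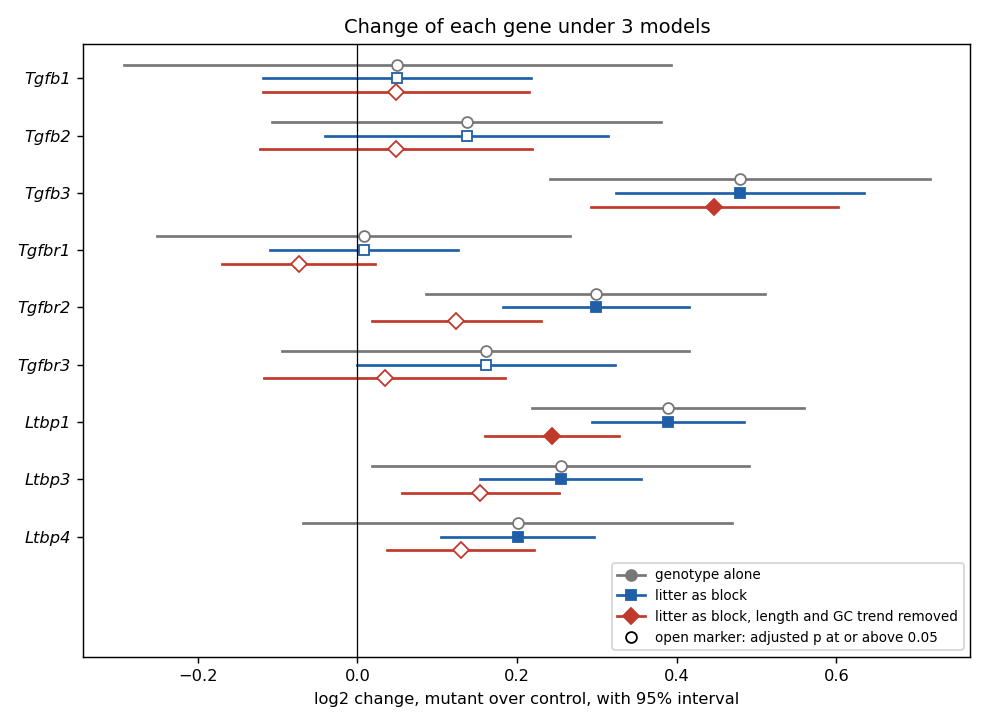
Log2 change, mutant over control, with its 95% interval for each of the 9 genes. Grey circles give genotype alone, blue squares litter as a block, and red diamonds litter as a block after removal of the length and GC trend, and filled markers have an adjusted p below 0.05. There are 5 genes filled with the block, and Tgfb3 and Ltbp1 remain filled after the trend is removed.

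The calls of 3 genes were lost without litter 1, while their changes stayed close to those over all litters. On litters 2 and 3 alone, with the block, Tgfb3 (adjusted p = 0.0430) and Ltbp1 (0.0120) were called. Tgfbr2 (log2 change 0.33, adjusted p = 0.0523), Ltbp3 (0.25, 0.103) and Ltbp4 (0.21, 0.136) missed the threshold. All 5 were called without litter 2 and without litter 3. Of all 13766 tested rows, 267 were called higher and 69 lower without litter 1. The counts were 958 and 454 without litter 2, and 1482 and 813 without litter 3.

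Some markers of stroma and endothelium were higher and some nephron progenitor markers lower in mutant kidneys. The counts below are with litter as a block, where 7.93% of all rows were called higher and 3.51% lower. With genotype alone these shares were 0.363% and 0.196%. The summed level of 10 stromal markers was 1212 to 1215 CPM in mutant and 989 to 1005 CPM in control kidneys, and 5 of the 10 rose and 0 fell (3 rose with genotype alone, Pdgfra, Fat4 and Ntn1). Pdgfra, the receptor for platelet-derived growth factor on mesenchyme, was at 299, 272 and 262 CPM in mutant kidneys and 215, 181 and 188 CPM in control kidneys. Fat4, a protocadherin, was at 136 ± 8.52 CPM in mutant and 78.9 ± 5.51 CPM in control kidneys, and Ntn1 (netrin 1) at 114 ± 4.19 CPM in mutant and 70.9 ± 3.52 CPM in control kidneys. Meis1, Meis2, Pdgfrb, Tcf21 and Tbx18 did not pass, with log2 changes of 0.12, -0.03, 0.08, 0.05 and 0.41. The 10 endothelial markers summed to 1213 to 1232 CPM in mutant and 1086 to 1097 CPM in control kidneys (5 rose, 0 with genotype alone), and the 9 macrophage and leukocyte markers to 114 to 139 CPM in mutant and 103 to 106 CPM in control kidneys (1 rose). The 5 smooth muscle markers summed to 247 to 286 CPM in mutant and 226 to 263 CPM in control kidneys (0 called), and the 6 ureteric bud markers to 576 to 618 CPM in mutant and 547 to 567 CPM in control kidneys (2 rose). The 11 nephron progenitor markers summed to 495 to 511 CPM in mutant and 743 to 759 CPM in control kidneys. Of these 7 fell (5 with genotype alone, Cited1, Capn6, Meox1, Meox2 and Traf1), and Crym, Gdnf, Itga8 and Osr1 did not pass. Capn6 was at 136 ± 6.51 CPM in mutant and 286 ± 6.89 CPM in control kidneys and made up most of the difference between the sums. The 6 podocyte markers were at 560 to 638 CPM in mutant and 601 to 707 CPM in control kidneys (2 fell). Of 5 adrenal markers only Star had a row, at 3.25 to 4.05 CPM in mutant and 3.27 to 4.20 CPM in control kidneys. The part of these cell types in the changes of the 9 genes was not tested. In RNA from whole kidneys, more cells of a type and more RNA per cell cannot be told apart.

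Some genes of the matrix that stores latent TGF-beta also rose. The list of storage and activation genes held 18 members, of which 10 rose with litter as a block, 0 fell and 8 did not pass, against 7.93% of all rows higher and 3.51% lower. With genotype alone 2 rose, fibronectin and fibrillin 1, against 0.363% of all rows. The list's median log2 change was 0.23, against 0.01 for all rows. Under median-ratio scaling with the block the counts were 6 higher and 1 lower, against 6.6% and 4.31% of all rows. The lower gene was Itgb5. Fn1 (fibronectin) was at 881 ± 51.5 CPM in mutant and 636 ± 49.8 CPM in control kidneys (log2 change 0.47, adjusted p = 0.000918 with the block and 0.0299 without). Fbn1 (fibrillin 1) was at 269.6 ± 26.3 CPM in mutant and 192 ± 3.75 CPM in control kidneys (0.48, 0.00332 and 0.0396). Fbn2 (fibrillin 2) was at 404 ± 26.1 CPM in mutant and 293 ± 31.3 CPM in control kidneys (0.47, 0.00163 with the block). Mmp2, a gelatinase able to cleave the latent complex, was at 176 ± 19.2 CPM in mutant and 148 ± 13.1 CPM in control kidneys (0.24, 0.0110 with the block). Fn1 (8315 bases), Fbn1 (11971 bases) and Fbn2 (11041 bases) have long transcripts, and their log2 changes were smaller after the length and GC trend was removed, at 0.30, 0.25 and 0.25, against 0.23 for Mmp2. These 4 were the only ones of the 18 called with the block after that removal, against 3.16% of all rows. Errors here and for the genes that follow are SD (n = 3 each).

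The other 6 that rose with the block were the integrin genes Itgav and Itgb8, whose products pair to activate latent TGF-beta, Thbs1 (thrombospondin 1), the proteinase genes Mmp14 and Bmp1, and Emilin1, which encodes a matrix protein that limits processing of the TGF-beta 1 precursor. Their adjusted p-values lay between 0.0276 for Itgb8 and 0.0429 for Emilin1. Itgb8 was at 14.5 ± 3.13 CPM in mutant and 10.6 ± 1.38 CPM in control kidneys. Itgb6, which forms the other main activating integrin with Itgav, was at 22.9 ± 6.26 CPM in mutant and 23.8 ± 7.84 CPM in control kidneys (adjusted p = 0.753 with the block). Furin, which cleaves the ligand precursor, was at 88.1 ± 15.1 CPM in mutant and 77.4 ± 15.5 CPM in control kidneys (0.0518). These 6 genes, Itgb5, Itgb6 and Furin were named for their roles after their values were seen.

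Genes that act on the signal inside the cell were called in numbers near the share of all rows. Of 8 Smads and receptor partners 0 were called in either direction by limma with the block, against 7.93% of all rows higher and 3.51% lower. An unadjusted p below 0.05 was seen for 2 of the 8, both higher, and for 4022 of all 13766 rows, in either direction. Smad2 and Smad3, which carry the signal to the nucleus, had log2 changes of 0.18 and 0.16, with adjusted p-values of 0.0713 and 0.0929 with the block, and were named after their values were seen. The median log2 change of the 8 Smads and receptor partners was 0.03, and -0.045 after the length and GC trend was removed. The most abundant were Map3k7, the kinase TAK1, at 167 ± 12.7 CPM in mutant and 163 ± 13.8 CPM in control kidneys, and Smad4, the shared partner of the signalling Smads, at 155 ± 5.64 CPM in mutant and 154 ± 10.2 CPM in control kidneys. Of 10 intracellular inhibitors 1 rose with the block, a share near the 7.93% of all rows. This was Ski, a co-repressor of Smad2 and Smad3 (149 ± 23.1 CPM in mutant and 129.6 ± 17.5 CPM in control kidneys, log2 change 0.20, adjusted p = 0.0353). It was not called after removal of the length and GC trend (0.209). The list's median was 0.07.

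Of 8 other receptors and extracellular regulators 1 rose with the block, Cd109, a co-receptor that dampens TGF-beta signalling (37.5 ± 4.65 CPM in mutant and 31.2 ± 4.62 CPM in control kidneys, log2 change 0.27, adjusted p = 0.0309). That count too is near the share of all rows. Cd109 was not called after the trend was removed (0.138). All 8 had a positive change, with a median of 0.15. Eng, also of this list, shares a joined row with another gene, so its value cannot be assigned to Eng alone.

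Of 17 measured genes reported to respond to TGF-beta, 4 rose with the block, 0 fell and 13 did not pass, against 7.93% of all rows higher and 3.51% lower, with a median log2 change of 0.17. With genotype alone 0 were called in either direction by limma, and 6 had an unadjusted p below 0.05, all higher. Of all 13766 tested rows 1551 had such a p, in either direction. Tgfbi, a matrix protein named for its induction by TGF-beta, was at 212 ± 17.6 CPM in mutant and 176 ± 20.5 CPM in control kidneys (log2 change 0.27, adjusted p = 0.00810 with the block). Tnc (tenascin C) was at 108 ± 2.96 CPM in mutant and 87.9 ± 9.06 CPM in control kidneys (0.30, 0.0218 with the block). Postn (periostin) was at 246 ± 58.2 CPM in mutant and 193 ± 28.8 CPM in control kidneys (0.33, 0.0424). Cdkn1a, the cell cycle inhibitor p21, was at 26.5 ± 4.23 CPM in mutant and 20.6 ± 3.13 CPM in control kidneys (0.35, 0.0453). Tgfbi and Cdkn1a were still called with the block after the length and GC trend was removed (0.0123 and 0.0453), and Tnc and Postn were not. These 2 of 17 compare with 3.16% of all rows called higher. Under median-ratio scaling with the block 2 of the 17 rose, Tgfbi and Tnc, against 6.6% of all rows.

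Other genes of the target list did not pass, nor did Smad7 of the intracellular inhibitors. Ccn2 (connective tissue growth factor) was at 12.9 ± 2.38 CPM in mutant and 13.7 ± 1.38 CPM in control kidneys (adjusted p = 0.539 with the block), and Smad7, an inhibitory Smad, at 25.3 ± 2.67 CPM in mutant and 26.6 ± 2.42 CPM in control kidneys (0.572). Changes on the log2 scale were 0.02 for Acta2 (smooth muscle actin) and -0.03 for Tagln (transgelin). The collagen genes Col1a1, Col1a2 and Col3a1 had log2 changes of 0.27, 0.20 and 0.23, with adjusted p-values of 0.0518, 0.149 and 0.0928 with the block, and Snai2, a transcription factor of mesenchymal cells, had 0.18 (0.116). These 8 were picked for their roles after their values were seen.

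**Figure D4:**
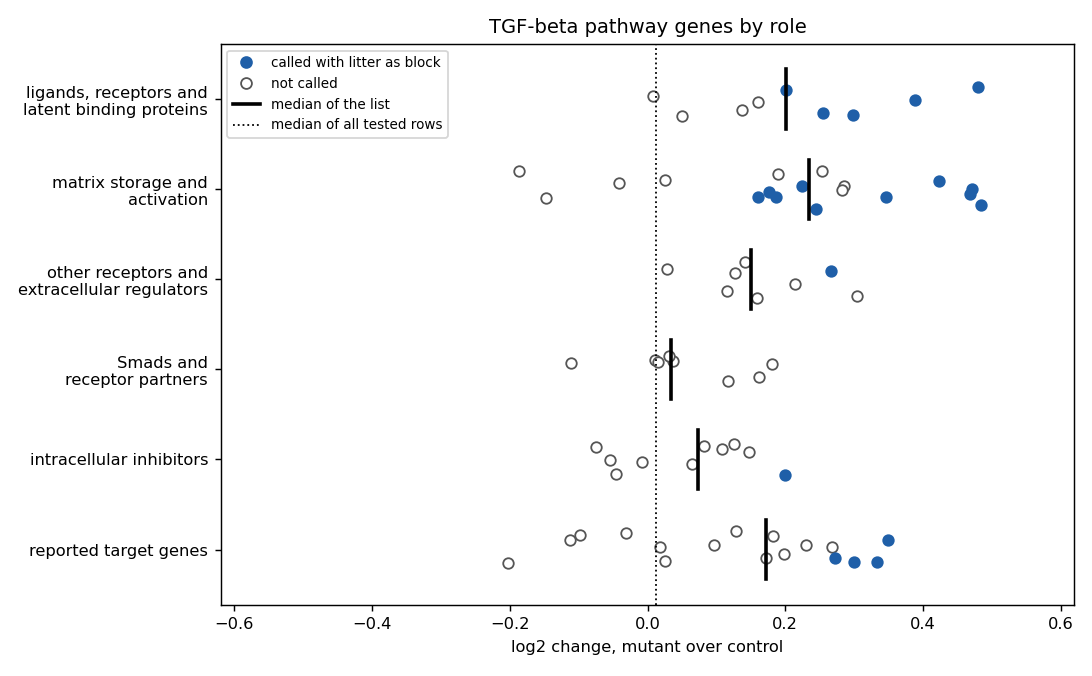
Log2 change, mutant over control, of the 9 genes and of the 61 tested genes in 5 lists of the pathway, 1 point per gene. Blue points were called with litter as a block, black bars are list medians, and the dotted line is the median of all tested rows (0.01). Blue points are most frequent among the 9 genes (5) and in the storage and activation list (10), and none lies among the Smads and receptor partners. With the block 7.93% of all tested rows were called higher and 3.51% lower.

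Rows with the most similar profile over the 6 libraries were looked up for each of the 5 genes that rose, as the smallest Euclidean distance between centred log2(CPM + 0.5) values among 10314 rows with a mean of at least 10 CPM. Nearest to Tgfb3 were Parm1 (distance 0.122), Fbn2 (0.124) and Faah (0.126), with log2 changes of 0.53, 0.47 and 0.43. Nearest to Ltbp1 were Igf2r, which binds latent TGF-beta among other cargo (0.0542), the retinoic acid synthesis gene Aldh1a2 (0.0919) and Sorl1 (0.0945). The 3 nearest to Tgfbr2 were Ralgps1, Ece1 and Dip2a (0.0572 to 0.0742). Those nearest to Ltbp3 were Hyou1, Tm9sf4 and Prpf8 (0.0786 to 0.0906), and those nearest to Ltbp4 were Serinc2, Fkbp10 and Tln1 (0.0597 to 0.0870). These distances describe 6 libraries that share litters and depth, and no test was made.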

How the data were processed

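The authors deposited CPM values, reads per gene scaled to the library total. TopHat2 2.0.9, Picard, SAMtools and build NCBIM37 are named in the submitters' processing notes, and the library kit was Illumina TruSeq, per the labels' protocols. The counting program, annotation and strand setting are not given in the sources used here. Every value was a whole number of reads, within 0.001, of a library total. The listed rows held 99.9% of it. Overlapping genes were joined in 526 rows, none of which holds any of the 9 genes analysed. Symbols, transcript lengths and 3′ UTRs came from GENCODE M21 (GRCm38) by Ensembl identifier (13695 rows matched), and no coordinates were carried between builds.

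Rows that reached 1 CPM in 3 or more libraries were compared with limma 3.58.1 (R 4.3.3) with the mean-variance trend, genotype alone as the main model and litter as a block as its alternative. Fold changes on this scale understate low genes. The labels tie 1 mutant and 1 control library to each litter, and deviations from group means correlated at 0.619, 0.446 and 0.312 within litters and at -0.514 to 0.172 between them. This contrast is partly set by the calculation, since deviations from a mean cancel out within a group. The length and GC trend of each library was removed with natural splines of 4 degrees of freedom on the longest transcript (98.2% of tested rows had one). The model was tested on simulated data. The number of embryos behind a library is not given, so p-values measure the spread between these libraries. The genes and lists were chosen with earlier results of these data known. All 9 genes are named. From each pathway list those called with genotype alone are named, then up to 4 of those called with the block by adjusted p, or the 2 most abundant where none was called, and further genes are marked as picked later.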

Additional observations from a re-analysis of the deposited data

How the results depend on the processing

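With genotype alone 50 rows were called higher and 27 lower, 0 of the 9 genes, and 2 genes of the pathway lists, both higher. With litter as a block, which the labels provide, the counts were 1091 higher and 483 lower, 5 of the 9 genes and 16 of the lists, all higher. After removal of the length and GC trend they were 107 higher and 76 lower with 1 of the 9 without the block, and 435 higher and 431 lower with 2 of the 9 and 6 of the lists with the block. Alternatives chosen after seeing the data, both with the block, gave 909 higher, 593 lower and 5 of the 9 for median-ratio scaling, and 529 higher, 477 lower and 3 of the 9 for the trend on mean transcript length. A minimum of 5 CPM gave 33 higher. Without litter 1, 2 or 3 the block gave 267, 958 and 1482 rows higher, 69, 454 and 813 lower, and 2, 5 and 5 of the 9, and without the block the counts were 2 higher and 8 lower without litter 2 and 1 higher and 2 lower without litter 3. With 1 library left out and no block, 8 to 68 rows were higher and 14 to 35 lower. They were 14 and 14 without control replicate 2, 25 higher without control replicate 3, 15 higher without mutant replicate 2, and 8 and 15 without mutant replicate 3, and 0 of the 9 genes were called each time. Tgfb3, Tgfb2, Tgfbr2, Tgfbr3, Ltbp1, Ltbp3 and Ltbp4 kept a positive change in all 24 alternatives, and Tgfb3 and Ltbp1 were called in all 7 with the block. The adjusted p over all alternatives ranged from 0.000396 to 0.735 for Tgfb3, 5.95e-05 to 0.665 for Ltbp1, 0.00361 to 0.890 for Tgfbr2, 0.00351 to 0.925 for Ltbp3 and 0.0151 to 0.969 for Ltbp4. With 1 library left out the log2 change of Tgfb1 was -0.048 to 0.22, and below 0 without control replicate 1, mutant replicate 2 or mutant replicate 3. That of Tgfbr1 was -0.070 to 0.12, and below 0 without mutant replicate 1, control replicate 2 or mutant replicate 3. Tgfbr1 was also at -0.074 after removal of the trend (with and without the block), -0.039 with mean transcript length, -0.0085 with median-ratio scaling (with and without the block), -0.011 with trimmed-mean scaling and -0.056 without litter 3 (with and without the block). The cause of these shifts was not tested. Levels per kilobase of mean transcript length and sign flips of the ratios within litters were also added after seeing the data. The edgeR alternatives were not run, since the table holds too few low values for the criterion set for recovering reads. The trimmed-mean factors were therefore computed from the CPM values. The number of libraries, 6, limits the precision.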
